A study of Mus musculus with 12 samples.

Results

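The secreted Wnt antagonists and R-spondins are a group of 10 genes, chosen by symbol, among the 27998 genes counted in single cells of the mouse joint. The antagonists were *Sfrp1*, *Sfrp2*, *Sfrp4*, *Frzb*, *Wif1*, *Dkk1*, *Dkk2* and *Dkk3*, and the R-spondins were *Rspo2* and *Rspo3*. Live cells without CD45, a surface protein of immune cells, had been sorted from collagenase-digested hind limb joints of wild-type male C57BL/6 mice aged 8 to 10 weeks and captured for 3′ single-cell RNA sequencing (scRNA-seq). Serum transfer-induced arthritis (STIA), a joint inflammation that starts and then subsides, was caused by injecting 100 µl of serum of arthritic K/BxN mice into a vein. The 12 libraries fell into 4 groups of 3, namely untreated mice at day 0 (rest) and injected mice at days 7 to 9 (peak), at day 15 (resolving) and at day 22 (resolved). The joints of 3 animals were pooled in each library, so n counts pools of animals and no single animal can be followed. The question taken from the design was where these genes were expressed among the joint's stromal cells, and whether their levels differed between the stages.

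Wnt proteins are secreted signals that bind Frizzled and LRP co-receptors and, through β-catenin, switch on TCF/LEF target genes. Secreted frizzled-related proteins (the *Sfrp* genes and *Frzb*) and Wnt inhibitory factor (*Wif1*) bind Wnt proteins outside the cell, whereas the Dickkopf proteins of *Dkk1* and *Dkk2* act at the LRP co-receptors. R-spondins act the other way, since they bind LGR receptors, remove the ubiquitin ligases ZNRF3 and RNF43 and so leave more Frizzled on the cell surface. In joints and bone, Wnt signaling is known for its part in bone formation and cartilage maintenance.

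Positions are given on the mouse genome GRCm38 from GENCODE M21. *Sfrp1* lies at chr8:23411502-23449632 and *Sfrp2* at chr3:83766321-83774316, both on the plus strand, and *Sfrp4* at chr13:19623104-19632994 on the plus strand. *Frzb* lies at chr2:80411970-80447625 on the minus strand and *Wif1* at chr10:121033960-121100650 on the plus strand. *Dkk1* lies at chr19:30545863-30549665 on the minus strand, *Dkk2* at chr3:132085292-132180304 on the plus strand and *Dkk3* at chr7:112116017-112159057 on the minus strand. *Rspo2* lies at chr15:43020794-43170826 and *Rspo3* at chr10:29452416-29535867, both on the minus strand. The end of *Sfrp2* overlaps an antisense gene model, *Gm26771*. *Rspo3* overlaps *Gm20276* on its own strand and *Gm48159* on the other, so its counts could have lost reads to the overlap on its own strand.

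RefSeq held a promoter entry for 5 of the 10 members (GRCm38.p6). Those of *Sfrp2*, *Dkk2* and *Wif1* are shown because these 3 members differed clearly between cell types or fibroblast clusters. Each sequence runs 5′ to 3′ on the strand of its gene and ends at the base before the first base of the gene, and capitals mark a TATAAA word on either strand. The *Sfrp2* sequence is chr3:83766071-83766320, the *Dkk2* sequence is chr3:132085042-132085291 and the *Wif1* sequence is chr10:121033754-121033959, where the 44 bases nearest the RefSeq start were left out because GENCODE places them inside the gene.
Sfrp2: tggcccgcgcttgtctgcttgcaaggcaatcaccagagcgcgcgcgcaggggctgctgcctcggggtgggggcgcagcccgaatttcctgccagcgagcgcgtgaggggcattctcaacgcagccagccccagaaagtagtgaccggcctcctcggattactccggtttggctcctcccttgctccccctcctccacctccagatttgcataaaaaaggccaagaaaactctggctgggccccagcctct
Dkk2: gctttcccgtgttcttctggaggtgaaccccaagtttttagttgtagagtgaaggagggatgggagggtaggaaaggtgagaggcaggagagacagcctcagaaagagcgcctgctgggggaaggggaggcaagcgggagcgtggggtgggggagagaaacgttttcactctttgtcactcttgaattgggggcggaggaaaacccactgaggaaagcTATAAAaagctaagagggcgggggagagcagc
Wif1: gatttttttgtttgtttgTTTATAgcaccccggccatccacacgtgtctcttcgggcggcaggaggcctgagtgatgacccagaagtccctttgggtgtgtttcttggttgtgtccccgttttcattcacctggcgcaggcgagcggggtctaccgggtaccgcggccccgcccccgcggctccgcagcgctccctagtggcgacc
The word TATAAA stood 32 to 27 bases before the RefSeq start of *Dkk2*, and for *Wif1* on the opposite strand 232 to 227 bases before it. It was in 12.37% of 32851 RefSeq promoters of 250 bases. None of the 3 held, on either strand, the TCF/LEF word CTTTGAA or its forms with AT, TA or TT in place of the last AA, and 14.84% of all promoters did. *Dkk1* held 2 of these words, from 117 to 111 and from 98 to 92 bases before its RefSeq start. GENCODE places the 169 bases nearest that start inside the gene, so both words lie within it. A match is a description of letters and no match says nothing on any factor.

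After the study's limits on genes and UMIs (unique molecular identifiers, which tag each captured RNA molecule), 20060 of the 21042 deposited cells were kept, with 1227 to 2747 cells and 7468914 to 16566202 UMIs per library. Cells were clustered without the members and 74 other Wnt pathway genes, and clusters were named from marker genes. The names stand for cells that look like a type by its markers. Fibroblasts made up 9584 cells (47.8%) in 7 clusters, with 162.8 CPM (counts scaled to a common library total) of *Pdgfra* against 82.8 in tenocytes, 48.5 in osteoblasts and 7.36 in chondrocytes. *Ptprc*, which encodes CD45, was at 0.0629 CPM in fibroblasts. Libraries with one label were not most alike. The library whose fibroblasts correlated best with a given library had the same label for 1 of 12 libraries, and its barcode suffix was in the same run of 3 consecutive suffixes for 11 of 12. The 3 libraries with suffixes 4 to 6 (rest replicate 2, peak replicate 2 and resolved replicate 1) stood apart, and results that they moved by over 1.5 times are also given without them. The labels give no suffix, so whether each suffix was matched to the right label could not be checked from the counts, and a mismatch would change the stage of every value below. No cell barcode with its suffix was shared between libraries. The suffix differs between libraries, so this is no check on the labels.

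Fibroblasts, tenocytes, osteoblasts and chondrocytes each had their own set of members, and vascular endothelial and perivascular cells had less than fibroblasts of 8 of the 9 members tested. Among the widely found types, *Sfrp1* and *Rspo2* were highest in fibroblasts, *Wif1* in tenocytes, *Dkk3* in osteoblasts, and *Frzb* and *Rspo3* in chondrocytes. UMIs were summed per library and cell type and compared with fibroblasts of the same libraries by the quasi-likelihood test of edgeR, adjusted by the Benjamini-Hochberg method. A gene was called where the adjusted p-value was below 0.05 and the log2 fold change exceeded 0.5 in size. 9 members passed the filter on low counts, and *Dkk1* did not. Over the 5 types found most widely (osteoblast, chondrocyte, tenocyte, perivascular and vascular endothelial), fibroblasts were higher in 28 and lower in 12 of 45 comparisons. Against osteoblasts 4 members were called each way, where 31% of all genes were called, 16.1% as higher in fibroblasts and 14.9% as lower. Against chondrocytes 6 members were higher and 3 lower in fibroblasts (all genes 46.6%, with 25.4% higher and 21.2% lower), and against tenocytes 2 were higher and 5 lower (all genes 22.8%, with 10.8% higher and 11.9% lower). Fibroblasts were higher for 8 of the 9 members against perivascular cells, where 38% of all genes were called, 20.1% as higher and 17.9% as lower. The same count held against vascular endothelial cells, where 52.8% of all genes were called, 23.7% as higher and 29.2% as lower, and no member was called lower in either. In the remaining types no member was called lower in fibroblasts. The members called higher numbered 8 against muscle (43.9% of all genes called, 28.3% higher and 15.6% lower) and 7 against immune cells (29.1%, with 16.9% and 12.1%). They numbered 6 against lymphatic endothelial (36.8%, with 23.9% and 12.9%) and 4 against proliferating cells (26.9%, with 15.8% and 11%). The proliferating cluster was named from cell cycle markers and also showed all 7 fibroblast markers, so it may hold dividing fibroblasts. Of its 701 cells, 480 came from libraries with suffixes 4 to 6. Against Schwann cells 3 were higher (15.6%, with 10.8% and 4.85%) and against erythroid cells 2 (13%, with 7.15% and 5.88%).

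**Figure D1:**
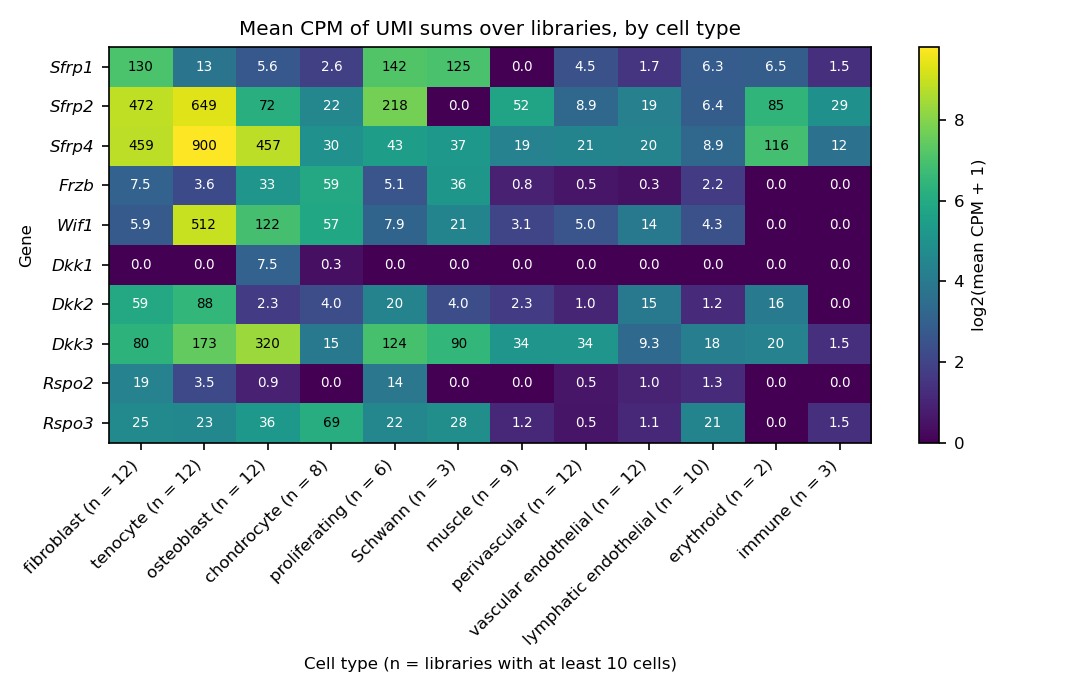
Mean level of the 10 members (rows) in 12 cell types (columns), in CPM of the UMIs summed per library and type, as colour on a log scale. *Sfrp1* and *Rspo2* are highest among the widely found types in fibroblasts, and *Wif1* in tenocytes.

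*Sfrp1*, which encodes a secreted Wnt-binding protein, was a gene of fibroblasts among the widely found types. Its level per library in fibroblasts had a lowest value of 26.2, a median of 63.0 and a highest of 428 CPM (mean 129.6 ± 145, SD, n = 12). Without the 3 libraries with suffixes 4 to 6 the mean was 53.4 ± 29.3 CPM (SD, n = 9). In tenocytes the same values were 3.91, 11.6 and 34.9 CPM, and in osteoblasts 1.97, 5.42 and 11.1 CPM. Fibroblasts were higher in 12 of 12 libraries against each of these types, and the lowest fibroblast library still stood above every osteoblast library. The log2 fold change was 2.65 over tenocytes (SE 0.18, adjusted p = 1.7e-22), 4.16 over osteoblasts (SE 0.24, adjusted p = 1.2e-27) and 6.01 over vascular endothelial cells (SE 0.30, adjusted p = 1.4e-32). Without those 3 libraries these were 2.07 (adjusted p = 5.3e-15), 3.65 (adjusted p = 7.9e-20) and 5.61 (adjusted p = 1.2e-22). No UMI of *Sfrp1* was seen in muscle cells, against which the fibroblasts of the same 9 libraries were at least 25.2-fold higher when muscle was set to 3 counts over those libraries. After thinning each cell to 2000 UMIs, 14.1% of fibroblasts held a *Sfrp1* UMI (24.1% before thinning) and 0.26% of vascular endothelial cells did (0.62% before), with median depths of 5529 and 3176 UMIs. Schwann cells, found in 3 libraries, had 125 ± 109 CPM (SD), while the fibroblasts of the same libraries had a mean of 35.5 CPM and were below them in 3 of 3 (log2 fold change of fibroblasts -0.75, SE 0.49, adjusted p = 0.35). Proliferating cells, found in 6, had 142 ± 70.9 CPM. The fibroblasts of the same libraries had a mean of 224 CPM and were above them in 5 of 6. The log2 fold change of fibroblasts was 0.49 (SE 0.18, adjusted p = 0.027), short of the fold threshold.

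*Sfrp2*, a related Wnt-binding protein known from dermal fibroblasts, was shared by fibroblasts and tenocytes. Fibroblasts had a lowest level of 94.4, a median of 264.5 and a highest of 1249 CPM (mean 472 ± 418, SD, n = 12, and 262 ± 180 in the 9 libraries without suffixes 4 to 6), and tenocytes had 145.1, 574 and 1292 CPM. The groups overlapped over most of their range, and fibroblasts were higher in 3 of 12 libraries. The log2 fold change over tenocytes was -0.90 (SE 0.29, adjusted p = 0.011), and it reversed to 0.54 with coarser clusters (adjusted p = 0.17). It missed the threshold by DESeq2 (-1.02, adjusted p = 0.11), without peak replicate 3 (-0.76, adjusted p = 0.053) and without resolved replicate 3 (-0.73, adjusted p = 0.056). Osteoblasts had 14.7, 55.9 and 204 CPM, below the fibroblasts of the same library in 12 of 12 (log2 fold change of fibroblasts 2.54, SE 0.33, adjusted p = 1.5e-10). That difference also turned with coarser clusters, to -0.54 (adjusted p = 0.13). Thinned shares of cells with a UMI were 16.6% in fibroblasts, 17.5% in tenocytes and 1.85% in vascular endothelial cells (23.4%, 23.0% and 3.28% before thinning).

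*Sfrp4*, another frizzled-related protein, was found in tenocytes, fibroblasts and osteoblasts. The lowest, median and highest levels were 197, 761 and 2332 CPM in tenocytes, 101.9, 452 and 848 CPM in fibroblasts and 272, 433 and 856 CPM in osteoblasts. Fibroblasts lay below tenocytes (-1.03 on the log2 scale, SE 0.23, adjusted p = 1.9e-04), which coarser clusters turned to 0.52 (adjusted p = 0.082). Between fibroblasts and osteoblasts the log2 fold change was -0.10 with an SE of 0.23 (adjusted p = 0.77), and the levels overlapped throughout. With coarser clusters fibroblasts were called lower there, at -1.03 (adjusted p = 9.1e-05). Chondrocytes had 0, 10.5 and 99.3 CPM over 8 libraries.

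The turns with coarser clusters came with a change of which clusters bore a name. Tenocytes held 3 clusters, led by *Angptl7*/*Kera* (1542 cells), *Nppc*/*Egfl6*/*Vipr2* (846 cells) and *Fam159b*/*Ptx4*/*Chodl* (134 cells). At the lower Leiden resolution, 760 cells of the second fell into the class named osteoblast and 804 of the 828 cells of an unnamed cluster led by *Cytl1*/*Clu*/*Npy* fell into the class named tenocyte. *Sfrp4* was at 1693 ± 990 CPM (SD, n = 12) in the *Nppc*/*Egfl6*/*Vipr2* cluster and above the fibroblasts of the same library in 12 of 12. In the *Angptl7*/*Kera* cluster it was at 337 ± 272 CPM and above the fibroblasts in 4 of 12. *Sfrp2* was at 1128 ± 486 and 415 ± 332 CPM in the same 2 clusters, *Rspo3* at 54.3 ± 23.6 and 4.09 ± 3.46 CPM, and *Wif1* ran the other way with 189 ± 126 and 850 ± 580 CPM. The tenocytes were thus not uniform, and *Wif1* was above the fibroblasts in 12 of 12 libraries in both of these clusters. In the small *Fam159b*/*Ptx4*/*Chodl* cluster *Wif1* was at 2.86 ± 5.09 CPM (SD, n = 7) and above the fibroblasts in 1 of 7 libraries. *Sfrp4* was at 16.5 ± 32.5 and *Sfrp2* at 17.4 ± 24.2 CPM there.

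*Wif1*, whose product binds Wnt proteins through its WIF domain, was high in tenocytes and low in fibroblasts. Its lowest, median and highest levels were 0.77, 4.87 and 17.1 CPM in fibroblasts and 98.0, 521 and 982 CPM in tenocytes, so the 12 fibroblast values all lay below the 12 tenocyte values. The log2 fold change of fibroblasts was -6.58 over tenocytes (SE 0.37, adjusted p = 1.2e-28), -4.32 over osteoblasts (SE 0.37, adjusted p = 2.6e-18) and -3.02 over chondrocytes (SE 0.55, adjusted p = 1.9e-06). Osteoblasts had 12.5, 90.3 and 329 CPM. Chondrocytes had 6.83, 20.8 and 279 CPM over 8 libraries, where rest replicate 2, with 16 cells, gave the highest value. Without the libraries with suffixes 4 to 6 the difference from chondrocytes was -2.37 (adjusted p = 5.0e-04). Thinned shares of cells with a UMI were 21.4% in tenocytes, 8.88% in osteoblasts, 0.75% in fibroblasts and 0.70% in vascular endothelial cells (28.1%, 14.6%, 1.96% and 1.30% before thinning), so the share in fibroblasts was close to that in vascular endothelial cells. The fibroblast cluster with the highest mean, *Hmcn2*/*Ccl11*/*Hsd11b1*, had 24.1 ± 39.7 CPM (SD, n = 12) and up to 129 in 1 library. Over vascular endothelial cells, with a mean of 14.5 CPM, the log2 fold change of fibroblasts was -1.07 (SE 0.49, adjusted p = 0.051). It passed the threshold, at -0.92 to -1.32, with RLE size factors, with no filter, with no library block, with at most 10% mitochondrial UMIs, without resolving replicate 1 and without rest replicate 2. The *Cytl1*/*Clu*/*Npy* cluster, which held fibroblast markers beside markers of other types and was left unnamed, had 767 ± 509 CPM (SD, n = 12). With it and the other unnamed cluster of that kind counted as fibroblasts, a choice made after seeing the data, the log2 fold change over chondrocytes was 0.35 (adjusted p = 0.67), that over osteoblasts was -0.74 (adjusted p = 0.13) and that over tenocytes stayed past the threshold.

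*Frzb*, the frizzled-related protein first isolated from cartilage, was higher in chondrocytes and osteoblasts than in fibroblasts. Chondrocytes had 27.3, 46.2 and 153 CPM as lowest, median and highest level over 8 libraries, osteoblasts had 0, 25.4 and 116 CPM over 12, and fibroblasts had 1.96, 7.30 and 13.1 CPM over 12. Every chondrocyte library stood above every fibroblast library. The log2 fold change of fibroblasts was -3.23 over chondrocytes (SE 0.33, adjusted p = 6.8e-15) and -1.92 over osteoblasts (SE 0.26, adjusted p = 1.4e-09). Chondrocytes were also above osteoblasts, by 1.31 on the log2 scale (SE 0.34, adjusted p = 6.8e-04). Over tenocytes the log2 fold change of fibroblasts was 0.72 (SE 0.34, adjusted p = 0.096), and it turned to -1.71 with coarser clusters (adjusted p = 3.1e-07), when the *Cytl1*/*Clu*/*Npy* cluster, with 67.1 ± 58.6 CPM of *Frzb*, counted as tenocytes. It passed the threshold in the first direction with thinned cells (0.98, adjusted p = 0.039), with no filter (0.76, adjusted p = 0.040) and with the unnamed clusters counted as fibroblasts (1.53, adjusted p = 7.0e-05).

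The 3 Dickkopf genes had separate places. *Dkk1*, an LRP co-receptor antagonist known as a bone-loss factor in inflammatory arthritis, was the rarest member. It had 49 UMIs in osteoblasts, where its lowest, median and highest levels were 0, 5.17 and 30.6 CPM and 2 of 12 libraries were at 0. Fibroblasts held 2 UMIs of *Dkk1* among 61263402 UMIs, and tenocytes, perivascular cells and vascular endothelial cells held none. Its low counts kept it out of the tests between cell types and of the tests of each stage against rest, so its order is a description.

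*Dkk2*, also an LRP co-receptor antagonist, was found in fibroblasts and tenocytes and scarcely in bone or cartilage cells. Fibroblasts had 26.8, 52.1 and 115 CPM as lowest, median and highest level and tenocytes had 43.9, 75.9 and 194 CPM. Osteoblasts had 0, 1.48 and 6.44 CPM, all below the lowest fibroblast library (log2 fold change of fibroblasts 4.49, SE 0.29, adjusted p = 2.2e-25). The difference from tenocytes was -0.60 (SE 0.15, adjusted p = 8.3e-04). It was -0.67 by DESeq2 (adjusted p = 0.087), -0.28 with thinned cells (adjusted p = 0.073), 0.09 with coarser clusters (adjusted p = 0.74) and -0.41 without the libraries with suffixes 4 to 6 (adjusted p = 0.041), none of which passed both thresholds.

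*Dkk3*, a divergent Dickkopf protein, was highest in osteoblasts among the named types. An unnamed cluster with fibroblast markers, *C1qtnf3*/*Spon2*/*Slc40a1*, stood higher, at 452 ± 174 CPM (SD, n = 7) against a mean of 320 CPM in osteoblasts. Osteoblasts had 164, 328 and 492 CPM as lowest, median and highest level, tenocytes had 96.4, 164 and 302 CPM and fibroblasts had 17.1, 64.8 and 187 CPM. Fibroblasts were lower in 12 of 12 libraries against both types, by a log2 fold change of -2.07 over osteoblasts (SE 0.21, adjusted p = 2.9e-15) and -1.29 over tenocytes (SE 0.20, adjusted p = 1.4e-07). Osteoblasts exceeded tenocytes by 0.78 (SE 0.20, adjusted p = 1.3e-03). Thinned shares of cells with a UMI ran in the same order, 39.6%, 25.9% and 11.5%, against 1.40% of vascular endothelial cells (64.3%, 46.7%, 26.2% and 2.94% before thinning).

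The R-spondins had different patterns. *Rspo2* was a gene of fibroblasts, with 9.58, 17.4 and 37.4 CPM as lowest, median and highest level, against 0, 2.81 and 9.99 CPM in tenocytes and 0, 0 and 3.22 CPM in osteoblasts. Fibroblasts were higher in 12 of 12 libraries against both, with a log2 fold change of 2.26 over tenocytes (SE 0.25, adjusted p = 4.5e-12) and 3.90 over osteoblasts (SE 0.36, adjusted p = 1.5e-15). No UMI of *Rspo2* was seen in chondrocytes, and the fibroblasts of the same 8 libraries were at least 25.9-fold higher when chondrocytes were set to 3 counts over them. *Rspo3* was spread more evenly, at 9.60, 23.6 and 44.7 CPM in fibroblasts, 4.15, 24.2 and 48.0 CPM in tenocytes, 20.4, 37.8 and 46.3 CPM in osteoblasts and 0, 68.3 and 144 CPM in chondrocytes. Fibroblasts were lower than chondrocytes (-1.83 on the log2 scale, SE 0.22, adjusted p = 1.0e-11) and did not pass the threshold against tenocytes (0.12, SE 0.19, adjusted p = 0.67). With coarser clusters they were called higher than tenocytes, at 2.16 (adjusted p = 3.9e-13). The difference from osteoblasts, -0.53 (SE 0.19, adjusted p = 0.020), sat at the threshold. It fell short, at -0.38 to -0.50, when rest replicate 1 or 3, peak replicate 1 or 3, resolving replicate 3, or resolved replicate 2 or 3 was left out.

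**Figure D2:**
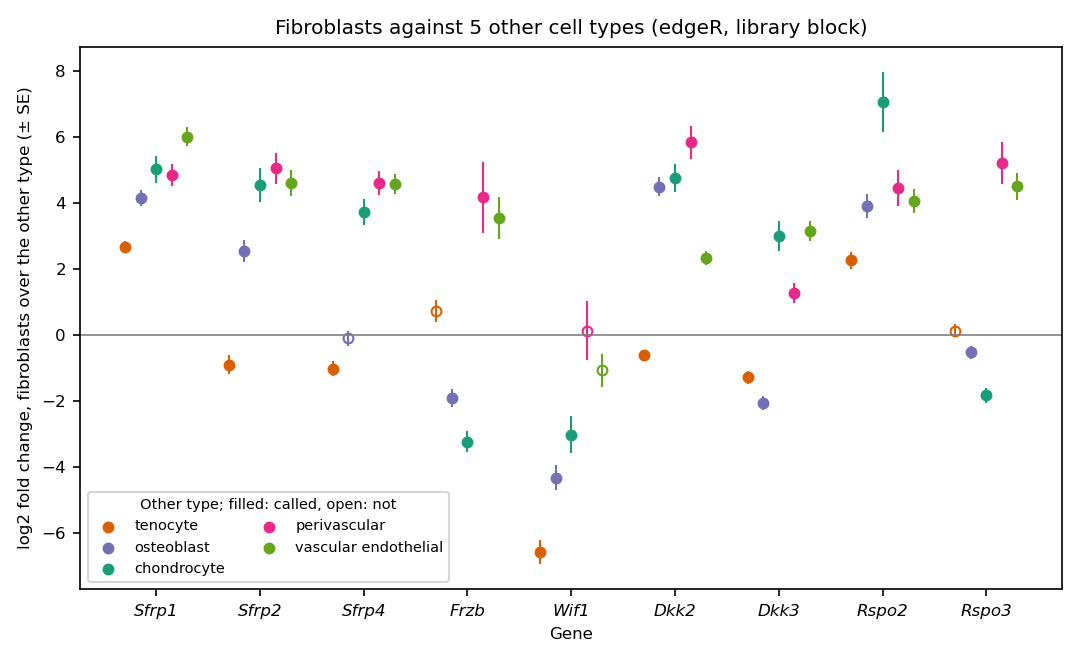
Log2 fold change of fibroblasts over each of 5 cell types (colours) for the 9 members tested, with the SE as bars. Filled points passed the threshold and open points did not. Values above 0 are higher in fibroblasts, as for *Sfrp1* and *Rspo2* in each type, and *Wif1* lies at -6.58 over tenocytes. No UMI of *Rspo2* was seen in chondrocytes, so its fitted fold there is not a measured size.

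Within the fibroblasts the members were highest in different clusters. Clusters were made from the same cells without the members, so their levels are a description with no test. The cluster led by *F13a1*/*Rab37*/*Col22a1* (1121 cells) was named lining from markers such as *Prg4*, the lubricin gene, and held the most *Rspo2*, with 30.7, 49.2 and 88.4 CPM as lowest, median and highest level over 12 libraries (mean 56.1 ± 21.0, SD). The next fibroblast cluster for *Rspo2* had a mean of 19.1 ± 6.66 and was lower in 6 of the 6 libraries that held both. The unnamed *C1qtnf3*/*Spon2*/*Slc40a1* cluster had 30.3 ± 30.8 CPM (SD, n = 7) and up to 98.7 in 1 library. It was below the lining in 6 of the 7 libraries that held both. The lining had 9.05 ± 7.25 CPM of *Sfrp2*, 13.9 ± 13.3 of *Sfrp1*, 3.12 ± 2.44 of *Dkk2* and 0.54 ± 0.87 of *Frzb*, each the lowest mean of the 7 clusters. It was not the lowest for *Sfrp4*, at 80.9 ± 63.7 CPM, or *Dkk3*, at 49.9 ± 30.4 CPM.

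The *Inmt*/*C4b*/*Serpina3m* cluster (1667 cells) held the most *Dkk2*, with 108.2, 209.6 and 316 CPM as lowest, median and highest level (mean 208 ± 56.6, SD, n = 12). The next cluster, *Ifi205*/*Ptx3*/*Ccl7*, had a mean of 81.3 ± 47.5 and was lower in 12 of 12 libraries. A thinned *Dkk2* UMI was seen in 24.9% of cells of the first and 0.64% of lining cells (36.6% and 1.34% before thinning, with median depths of 4255 and 7523 UMIs). *Sfrp4* was also high there, at 749 ± 445 CPM, next to 707 ± 504 in the *Hmcn2*/*Ccl11*/*Hsd11b1* cluster and 678 ± 202 in the sublining cluster led by *Stmn4*/*Pi16*/*Dpp4* (1867 cells). The first 2 of these took turns at the top, the first being higher in 6 of 12 libraries.

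The *Cxcl5*/*Saa3*/*Chl1* cluster (1494 cells) held the most *Sfrp1*, with a lowest level of 101.6, a median of 360.3 and a highest of 580 CPM in the 6 libraries with at least 10 of its cells (mean 356 ± 180, SD). It was above the next cluster, *Inmt*/*C4b*/*Serpina3m* at 102.1 ± 49.0 CPM, in 6 of 6 libraries. A thinned *Sfrp1* UMI was seen in 43.0% of its cells (68.2% before thinning). *Sfrp2* was at 920 ± 534 CPM there against 540 ± 513 in the next cluster, which it exceeded in 4 of 6 libraries, and *Sfrp4* had its lowest mean there, 46.1 ± 10.3 CPM. The cells came from few libraries: 43.4% to 52.2% of the fibroblasts of the libraries with suffixes 4 to 6 belonged to it, 7.78% to 11.8% of those with suffixes 7 to 9, and at most 0.314% of the others. Its median depth was 10655 UMIs per cell. *Dkk3* was highest in the *Col14a1*/*Hmcn1*/*Acp5* cluster (1498 cells) at 180 ± 70.4 CPM, and the unnamed *C1qtnf3*/*Spon2*/*Slc40a1* cluster (1453 cells, with 4 markers of other classes) had 452 ± 174 CPM in 7 libraries.

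**Figure D3:**
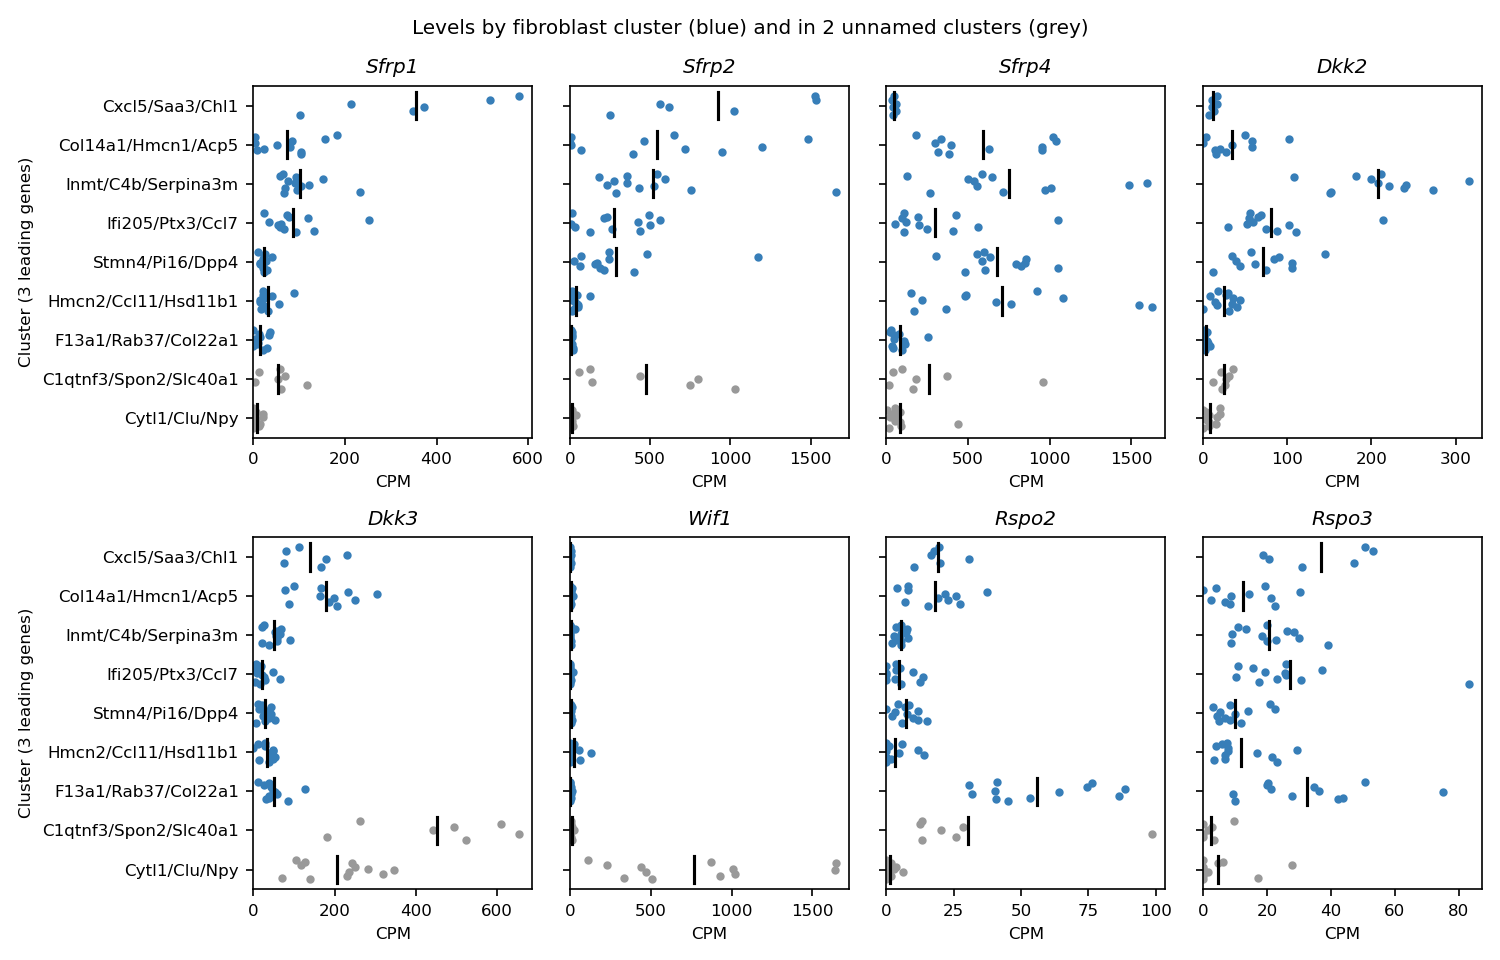
CPM of 8 members in 7 fibroblast clusters (blue) and 2 unnamed clusters (grey), 1 point per library with at least 10 cells of the cluster and a black line at the mean. *Dkk2* is highest in the *Inmt*/*C4b*/*Serpina3m* cluster, *Rspo2* in the *F13a1*/*Rab37*/*Col22a1* lining cluster, and *Sfrp1* in the *Cxcl5*/*Saa3*/*Chl1* cluster.

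Few of the antagonists were seen at once in single cells thinned to 2000 UMIs. That depth limits how many can be seen, so the counts do not tell how many a cell expressed together. A cell of the *Cxcl5*/*Saa3*/*Chl1* cluster held UMIs of 1.17 of the 8 antagonists on average, a tenocyte 1.04, an osteoblast 0.967 and a lining fibroblast 0.244. The highest mean, 1.23, was in the unnamed *C1qtnf3*/*Spon2*/*Slc40a1* cluster. None of the 8 was seen in 78.2% of lining fibroblasts, 30.2% of osteoblasts, 32.5% of tenocytes and 92.9% of vascular endothelial cells. At least 3 were seen in 8.75% of cells of the *C1qtnf3*/*Spon2*/*Slc40a1* cluster, 8.32% of the *Cxcl5*/*Saa3*/*Chl1* cluster and 0% of lining cells.

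Genes with a similar profile were sought over 18 groups of cells (cell types and fibroblast clusters) by Pearson's r of mean log2(CPM + 1). The groups share libraries, so r is a description. *Sfrp1* was most like *Chl1* (r = 0.88), *Vcan* (0.85) and *Scn7a* (0.84). *Sfrp2* was most like *Mmp3* (0.91), *Itgbl1* (0.88) and *Mfap4* (0.88), and *Sfrp4* most like *Steap3* (0.92), *Dcn* (0.92) and *Cml3* (0.91). *Dkk2* was most like *Cyp2f2* (0.94), *Slc16a9* (0.93) and *Cfb* (0.91), and *Rspo2* most like *Pla2g2e* (0.93), *Prg4* (0.90) and *Cyp1b1* (0.89). *Dkk3* was most like *Cdh11* (0.90), *Mxra8* (0.89) and *Fzd1* (0.86), and *Dkk1* most like *Fat3* (0.95) and *Chst8* (0.94). For *Wif1* the genes were *Yjefn3* (0.87), *Dlx6* (0.87) and *Galr2* (0.86), for *Frzb* *Slc35e3* (0.89), *3632451O06Rik* (0.88) and *Chadl* (0.83), and for *Rspo3* *Rpn2* (0.86), *Vimp* (0.86) and *Ppib* (0.85).

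By stage, no member was called in fibroblasts, where all 12 libraries were compared with edgeR and each later stage was set against rest. 0 of 27 member comparisons passed the threshold, where 0% of 11387 genes were called in each contrast (68, 117 and 58 genes had an unadjusted p under 0.05 at peak, resolving and resolved, none of them a member). The lowest adjusted p of a member was 0.999. *Sfrp1* had 38.8, 253.8 and 78.5 CPM in the rest libraries 1 to 3, 29.4, 428 and 40.1 CPM at peak, 47.4, 105.0 and 26.2 CPM at resolving and 392, 87.9 and 27.5 CPM at resolved. *Sfrp2* had 265.0, 880 and 262 CPM at rest, 264, 1175 and 94.4 CPM at peak, 132, 677 and 161 CPM at resolving and 1249, 378 and 126 CPM at resolved. In each label 1 library of *Sfrp1* stood well above the other two, and the 4 groups overlapped.

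*Sfrp4* had 847, 171 and 232 CPM at rest, 467, 101.9 and 362 CPM at peak, 848, 573 and 582 CPM at resolving and 116.6, 766 and 437 CPM at resolved. *Dkk2* had 109.4, 26.8 and 27.9 CPM at rest, 96.7, 33.0 and 44.2 CPM at peak, 115, 58.2 and 52.8 CPM at resolving and 30.8, 65.4 and 51.3 CPM at resolved. *Rspo2* had 15.3, 20.1 and 16.1 CPM at rest, 9.58, 19.6 and 9.74 CPM at peak, 13.5, 19.9 and 37.4 CPM at resolving and 18.7, 36.9 and 13.8 CPM at resolved. For these 3 members, too, the stages overlapped. The log2 fold changes over rest lay between -1.10 (*Sfrp1*, resolving, SE 1.16) and 0.70 (*Sfrp4*, resolving, SE 0.72). Simulated counts with the spread of these libraries recovered, at peak, 0% of genes with a log2 change of 1, 74.5% of those with 2 and 92.5% of those with 3, so a change of that smallest size was not detectable at this spread.

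With the run of 3 barcode suffixes as a block, the log2 fold changes of *Sfrp1* were 0.42 at peak (SE 0.22), 0.38 at resolving (SE 0.22) and 0.24 at resolved (SE 0.21), and 0 members and 0 genes were called. *Dkk2* was at 0.43 at resolving (SE 0.19) and 0.48 at resolved (SE 0.19) in that fit, with adjusted p-values of 1.0. In osteoblasts, chondrocytes, tenocytes, perivascular and vascular endothelial cells, 0 of 66 member comparisons with rest were called (0% of genes in each of the 15 contrasts) and 4 had an unadjusted p under 0.05. One was *Frzb* in chondrocytes at resolving, with 60.4 and 153 CPM against 29.1 and 31.9 at rest (log2 fold change 1.85, SE 0.57, adjusted p = 1.0). With the barcode run as a block 2 members were called in chondrocytes. *Sfrp4* had 2.83 and 12.9 CPM at resolving against 53.1 and 7.98 at rest (-3.87, SE 0.83, adjusted p = 0.013, where 0.897% of genes were called). *Wif1* had 6.83 and 22.9 CPM at resolved against 22.9 and 279 at rest (-3.76, SE 0.81, adjusted p = 0.012, where 0.645% of genes were called). In both cases the levels of the 2 stages overlapped, and 1 library at resolved held 18 chondrocytes and the other 17. The change of a member from rest in these types minus that in fibroblasts was not called in any of 138 comparisons, of which 18 had an unadjusted p under 0.05. For the contrasts behind the 66 and the 138 comparisons, the share of all genes with an unadjusted p under 0.05 is not given here. Whether 4 or 18 is unusual for members therefore cannot be told.

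Of the 10 members, 6 had a run of barcode suffixes whose 3 libraries stood apart from all others in fibroblasts, which is given as a description with no test. The share of all genes with any such run was not computed, so whether 6 of 10 is unusual cannot be told. For the other 4, *Rspo2* among them, the runs overlapped. In the 3 libraries with suffixes 4 to 6, *Sfrp1* was at 254 to 428 CPM against at most 105.0 in the others, *Sfrp2* at 880 to 1249 against at most 677, and *Rspo3* at 35.4 to 44.7 against at most 27.2. *Sfrp4* was lower there, at 101.9 to 171 CPM against at least 232. These libraries stood above all others for 10.9% of all genes and below for 12.9%. The libraries with suffixes 1 to 3 had the most *Dkk2*, 96.7 to 115 CPM against at most 65.4 (above all others for 4.55% of genes), and those with suffixes 7 to 9 the most *Dkk3*, 127 to 187 CPM against at most 91.8 (4.23%). Rest, peak and resolved each had 1 library with a suffix of 4 to 6.

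The make-up of the fibroblasts moved with these levels. The 7 fibroblast markers summed to 17590 to 20435 CPM in the fibroblasts with suffixes 4 to 6 and to 22266 to 72790 CPM in the others, and the 7 tenocyte markers to 947 to 1301 CPM with suffixes 4 to 6, 807 to 960 CPM with 7 to 9 and 166 to 358 CPM in the remaining libraries. The 7 immune markers summed to 2.51 to 15.2 CPM. Their part in the levels was not tested. Without the *Cxcl5*/*Saa3*/*Chl1* cluster, *Sfrp1* was at 90.4 to 98.1 CPM in the libraries with suffixes 4 to 6 and at most 71.9 in the others, while *Sfrp2*, *Sfrp4* and *Rspo3* overlapped. *Dkk2* with suffixes 1 to 3 (98.0 to 115 CPM against at most 79.7) and *Dkk3* with suffixes 7 to 9 (118 to 180 CPM against at most 69.8) stood apart without that cluster as well. The *Inmt*/*C4b*/*Serpina3m* cluster, highest for *Dkk2*, made up 28.7% to 38.9% of fibroblasts with suffixes 1 to 3 and at most 20.4% in the others. The *Col14a1*/*Hmcn1*/*Acp5* cluster, highest for *Dkk3*, made up 30.3% to 54.1% with suffixes 7 to 9 and at most 11.0% in the others. Neither of these clusters was left out, and their part in the levels was not tested. What the suffix stands for is not given in the sources used here, and its part in the levels was not tested.

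**Figure D4:**
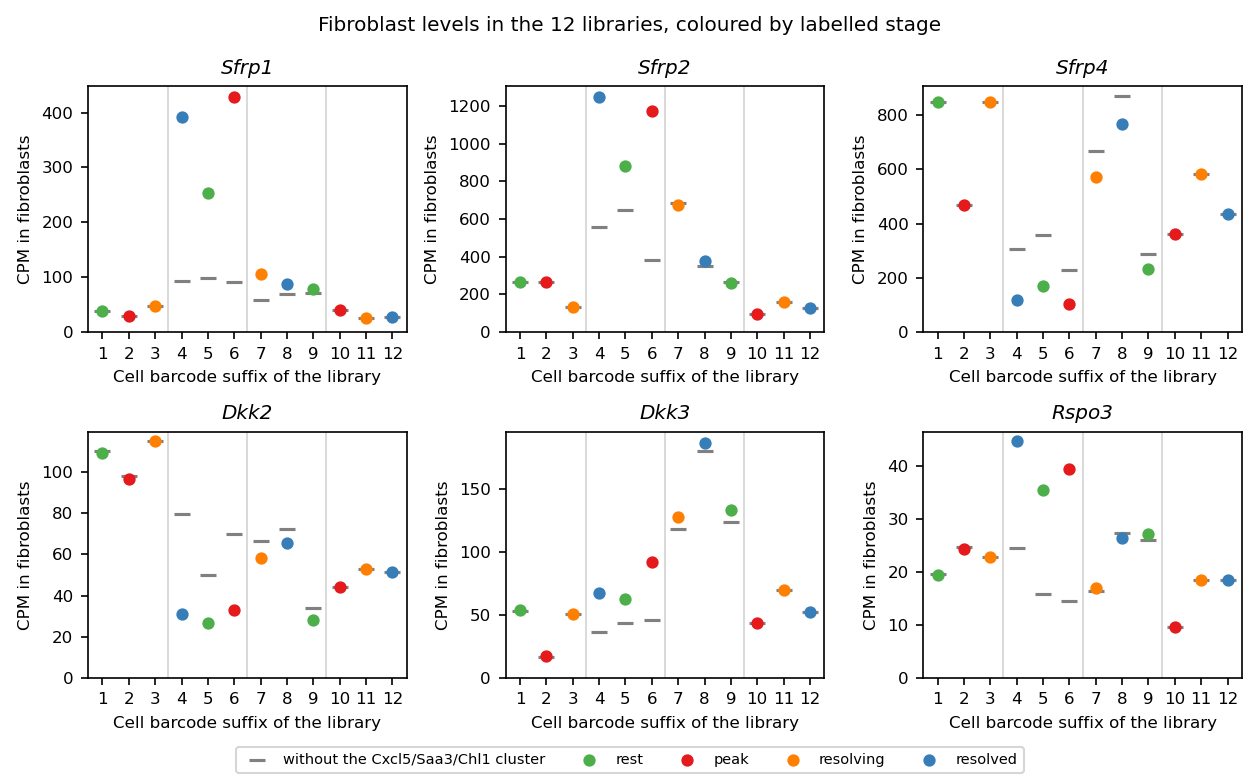
CPM of 6 members in fibroblasts against the barcode suffix of the library, 1 point per library coloured by its labelled stage, with a grey dash at the level without the *Cxcl5*/*Saa3*/*Chl1* cluster. *Sfrp1* and *Sfrp2* are highest and *Sfrp4* lowest at suffixes 4 to 6, whatever the label.

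Of the 74 other Wnt pathway genes, 40 were tested between cell types. Fibroblasts were higher for 6 and lower for 15 against tenocytes, 8 and 13 against osteoblasts, 15 and 11 against chondrocytes, 13 and 5 against perivascular cells and 23 and 7 against vascular endothelial cells. The shares of all genes called in these same contrasts are those given above beside the members. Their median log2 fold change was -0.30 over tenocytes (all genes 0.02) and 1.04 over vascular endothelial cells (all genes -0.08). It was -0.04 over osteoblasts (all genes -0.004), 0.38 over chondrocytes (all genes 0.10) and 0.51 over perivascular cells (all genes 0.06). Among ligands, *Wnt2* was at 19.0 CPM in fibroblasts and 2.36 in tenocytes (log2 fold change 2.96, SE 0.32, adjusted p = 1.2e-12). Among receptors, *Fzd1* was lower in fibroblasts than in tenocytes (46.7 and 98.2 CPM, log2 fold change -1.15, SE 0.14, adjusted p = 2.3e-11) and *Ryk*, a receptor of the tyrosine kinase family, was higher (50.9 and 31.3 CPM, 0.62, SE 0.13, adjusted p = 4.3e-05). *Lgr4*, an R-spondin receptor, was at 11.8 CPM in fibroblasts and 2.46 in vascular endothelial cells (2.44, SE 0.29, adjusted p = 4.2e-12), and *Znrf3*, which R-spondins remove, at 3.20 CPM in fibroblasts and not tested.

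Among other regulators, *Igfbp4*, which binds insulin-like growth factors and can block Wnt receptors, was at 1704 CPM in fibroblasts and 362 in osteoblasts (log2 fold change 2.28, SE 0.27, adjusted p = 3.3e-12), and *Kremen1*, a Dickkopf receptor, was at 14.8 and 26.4 CPM (-0.70, SE 0.15, adjusted p = 3.0e-05). Of the target genes, *Ccnd1* was lower in fibroblasts than in tenocytes (20.7 and 38.7 CPM, -0.90, SE 0.20, adjusted p = 1.3e-04), and *Myc* was at 212 and 271 CPM (-0.44, SE 0.15, adjusted p = 0.020, short of the fold threshold). *Wls*, which carries Wnt proteins to the surface, was lower in fibroblasts than in osteoblasts (156 and 332 CPM, -1.03, SE 0.11, adjusted p = 7.9e-14), and the kinase gene *Csnk1a1* was at 183 and 203 CPM (-0.06, SE 0.11, adjusted p = 0.67). By stage in fibroblasts 46 of the 74 genes were tested and 0 were called.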

How the data were processed

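CD45-negative cells of 12 libraries were measured with the 10x Genomics 3′ version 2 kit. The authors aligned the reads to mm10 with Cell Ranger and deposited whole-number UMI counts for each gene in each cell. The median number of UMIs per deposited cell was 5358 in every library, which looks like scaling to an equal depth, and such a step is not given in the sources used here. Libraries were grouped by their labels. The members and gene lists were chosen with earlier results of these data known, and the naming limits below were adjusted once the clusters had been seen, and 3 clusters stayed unnamed.

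Cells with more than 500 and fewer than 5000 genes, more than 500 UMIs and fewer UMIs than the study's limit for their library (20000 to 40000) were kept, and no limit was set on mitochondrial UMIs. Counts were scaled to 10000 per cell, and 2000 variable genes (without 84 members and Wnt pathway genes), 30 principal components, 20 neighbours and Leiden resolution 1.0 gave 25 clusters (scanpy 1.11.5, leidenalg 0.10.2). Naming a cluster needed 4 or more markers of a class, seen in 20% or more of its cells and raised by 1 or more on the log2 scale. Fibroblast clusters needed 5 or more fibroblast markers in 30% or more of their cells, with no other class passing. Scrublet called 56 cells (0.279%), too few to rely on, so doublets stayed in and 1198 cells with the highest scores were removed in an alternative.

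UMIs were summed per library and cell type over at least 10 cells and compared by the two-sided quasi-likelihood test of edgeR 4.0.16 in R 4.3.3, after TMM normalization and edgeR's own filter for low counts, with the Benjamini-Hochberg method over all genes tested. The library was a block between cell types, and no block was used between stages. The standard error was the size of the log2 fold change divided by the square root of F. CPM values are of the summed UMIs, 3′ counts that were not divided by gene length, so levels were compared within a gene. For shares of cells with a UMI, cells were thinned to 2000 UMIs, which left out 554 shallower cells. Limits from a count of 0 used 3 counts and cover counting error only. The models were tested on simulated counts in which 200 genes were changed. Between fibroblasts and tenocytes the test recovered 89.5% of them at a log2 change of 1, over 9689 genes.

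The genes named are the 10 members, the 2 highest of each group of the Wnt pathway list in fibroblasts, and the 3 genes most like each member, of which 1 is not reported here. *Wnt11*, one of the highest ligands, was at 11.2 CPM and was not tested between cell types. The replicate numbers were not taken to pair libraries, since the deviations of libraries with the same number correlated between -0.60 and 0.73 over 18 pairs, across genes that are not independent. The alternatives were RLE size factors, no filter, DESeq2 1.42.0, no library block, a replicate or barcode run block, no doublets, thinned cells, at most 10% mitochondrial UMIs, Leiden resolution 0.5, all cells of a library, and each library left out. Chosen after seeing the data were the 2 unnamed clusters with fibroblast markers counted as fibroblasts, and the 3 libraries with barcode suffixes 4 to 6 left out. Sequences were read from RefSeq promoter entries, and protein sequences were not used here.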

Additional observations from a re-analysis of the deposited data

How the results depend on the processing

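The count of member comparisons called higher in fibroblasts stayed between 57 and 59 (58 as reported) with each library left out, and that called lower between 10 and 13 (12 as reported). Without the 3 libraries with barcode suffixes 4 to 6 the counts were 54 and 11 of 90 comparisons. Of single member comparisons between 5 types, 13 of 445 changed sign under the alternatives and 5 of 540 with a library left out. Reversed values with coarser clusters (Leiden resolution 0.5) were -0.54 for *Sfrp2* over osteoblasts, and over tenocytes -1.71 for *Frzb*, 0.54 for *Sfrp2*, 0.092 for *Dkk2* and 0.52 for *Sfrp4*. With the 2 unnamed clusters counted as fibroblasts, *Wif1* reversed to 0.35 over chondrocytes and 2.60 over vascular endothelial cells. By stage in fibroblasts, 0 members and 0 genes were called with each library left out, with a replicate block and with a barcode run block, while 43 of 324 values changed sign.

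By stage in the other types, the barcode run block gave 2 member calls, *Sfrp4* at resolving (-3.87, adjusted p = 0.013) and *Wif1* at resolved (-3.76, adjusted p = 0.012), both in chondrocytes of 8 libraries, where 0.897% and 0.645% of 3567 genes were called, and 71 genes over the 15 contrasts. The replicate block gave 0 members and 5 genes, and leaving out a library 0 members and 0 to 2 genes, against 0 as reported. For the stage effect between types, 11 genes and 0 members were called, 3 genes with RLE size factors, and 5 to 46 with a library left out. The cause of these shifts was not tested. The mean of *Dkk1* in its highest fibroblast cluster went from 0.0766 CPM to 0 after thinning. Few UMIs limit *Dkk1*, and 3 libraries per label limit the stages.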

Other observations

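Outside the members, 3 genes of the Wnt pathway list showed a marked place in one cell type, and they were chosen after their values were seen. *Wnt16*, a Wnt ligand known from bone and joint tissue, was at 185 CPM in osteoblasts and 49.2 CPM in tenocytes against 2.64 CPM in fibroblasts. The log2 fold change of fibroblasts was -5.94 over osteoblasts (SE 0.22, adjusted p = 3.3e-39, edgeR, Benjamini-Hochberg adjusted) and -4.13 over tenocytes (SE 0.24, adjusted p = 1.1e-26), with fibroblasts lower in 12 of 12 libraries against both. *Notum*, which encodes an enzyme that inactivates Wnt proteins, was at 29.0 CPM in chondrocytes and 1.83 CPM in the fibroblasts of the same 8 libraries (-4.16, SE 0.33, adjusted p = 2.7e-20), where fibroblasts were lower in 8 of 8. *Fzd4*, a Frizzled receptor of vascular cells, was at 76.0 CPM in vascular endothelial cells and 12.8 CPM in fibroblasts (-2.38, SE 0.14, adjusted p = 4.6e-28), with fibroblasts lower in 12 of 12.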
